A study of Mus musculus with 4 samples.

Results

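The replication-dependent histone genes were taken as every non-control spot whose gene name begins with Hist1h, Hist2h, Hist3h or Hist4h. The rule found 36 genes with 47 probes, of 28474 named genes and 41174 probes on the array, and 43 probes of 33 genes were bright enough to be measured, of 30008 probes and 20620 genes in all. All 36 genes were found in the RefSeq table, where Hist3h2bb carries a pseudogene symbol (H2bu1-ps). The members were chosen by name alone, so the names are no check of what a probe binds. The measured probes comprised 8 for the linker histone H1, 16 for H2A, 10 for H2B, 3 for H3 and 6 for H4.

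These genes encode the bulk of the protein around which DNA is wound. A nucleosome core holds H2A, H2B, H3 and H4, and H1 binds the DNA between cores. Their genes lie in clusters, lack introns in most cases, and are transcribed mainly in S phase, when new DNA has to be packaged. Their mRNAs end in a conserved stem loop instead of a poly(A) tail. Stem-loop binding protein holds that loop, and the U7 small nuclear RNA directs the cut that forms the 3′ end. In the late fetal lung, as elsewhere, their mRNA is known as a readout of cells that are copying DNA.

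The lungs came from mouse embryos at E18.5, shortly before birth. Hypomorphs carried the genotype Fgf8H/-, by the usual reading of the symbols a hypomorphic allele of the secreted growth factor Fgf8 over a null allele, and controls were Fgf8+/+ (the sample titles use other letters for the hypomorph, AP/N, which the labels do not explain). Both groups share the strain label c57nl7/sv129 background. The lobes were separated from large airways and vessels, 3 lungs of a genotype were pooled, and each of 4 two-colour Agilent arrays held a wild type pool in Cy3 and a hypomorph pool in Cy5. The dyes were never exchanged, so dye and genotype cannot be told apart. The notes speak of RNA from 4 samples without saying whether that is per genotype, so p-values measure the spread between these 4 arrays. Values are log2 ratios of hypomorph over wild type, where 0 means equal signal, given as mean ± SD over n arrays. Adjusted p-values come from limma over all 30008 probes, and a probe is called higher or lower at an adjusted p under 0.05. In pools of whole lobes, fewer cells of a type and less RNA per cell cannot be told apart.

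Between 32491 and 34519 of 43379 spots per channel and array were well above background. Fgf8 itself had a log2 ratio of -0.18 with an adjusted p of 0.0572 on 4 arrays. Its second probe was not measured. The labelling notes name a kit that copies RNA from an oligo(dT) primer, so transcripts without a poly(A) tail are reached by a route that the notes do not describe, and how this bears on each histone probe was not tested. Gene names are as the array maker gave them, and histone genes of a class share most of their coding sequence. The probe sequences were not used here, so one transcript may bind the probes of several genes.

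The promoters of 31 of the 36 genes were in the RefSeq promoter table (GRCm38.p6). Below are the 250 bases before the start site of 5 genes, chosen to show both the linker gene that rose most and the one that fell most, and an H2A, an H2B and an H4 gene. Capitals mark matches, in either orientation, to 4 words. The CCAAT box is common near start sites, and the TATAAA box places the start of transcription. The octamer ATTTGCAT is known from H2B promoters, and the H1 box AAACACA from those of linker histones.
Hist1h1b (H1f5, chr13:21780626-21780875, minus strand): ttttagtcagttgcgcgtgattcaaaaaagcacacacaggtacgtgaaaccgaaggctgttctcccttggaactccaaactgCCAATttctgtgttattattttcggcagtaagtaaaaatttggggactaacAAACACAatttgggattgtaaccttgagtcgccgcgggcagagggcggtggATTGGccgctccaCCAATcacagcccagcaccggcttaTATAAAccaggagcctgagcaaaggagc
Hist1h1c (H1f2, chr13:23738557-23738806, plus strand): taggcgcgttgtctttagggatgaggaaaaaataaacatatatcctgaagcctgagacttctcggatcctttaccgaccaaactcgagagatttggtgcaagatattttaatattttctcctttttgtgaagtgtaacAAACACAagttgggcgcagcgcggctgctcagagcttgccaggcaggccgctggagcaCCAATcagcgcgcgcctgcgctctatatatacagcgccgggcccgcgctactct
Hist2h2ac (H2ac20, chr3:96220881-96221130, minus strand): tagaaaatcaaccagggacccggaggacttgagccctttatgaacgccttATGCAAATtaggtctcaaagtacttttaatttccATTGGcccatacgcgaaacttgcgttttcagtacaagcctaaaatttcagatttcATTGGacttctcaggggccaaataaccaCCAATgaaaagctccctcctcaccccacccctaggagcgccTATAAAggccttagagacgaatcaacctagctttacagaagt
Hist1h2bm (H2bc14, chr13:21721794-21722043, plus strand): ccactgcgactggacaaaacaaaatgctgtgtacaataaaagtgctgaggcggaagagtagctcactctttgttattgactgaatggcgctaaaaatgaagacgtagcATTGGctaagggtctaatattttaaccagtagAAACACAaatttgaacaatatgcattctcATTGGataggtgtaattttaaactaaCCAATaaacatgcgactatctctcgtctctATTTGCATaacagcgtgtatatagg
Hist1h4d (H4c4, chr13:23581318-23581567, plus strand): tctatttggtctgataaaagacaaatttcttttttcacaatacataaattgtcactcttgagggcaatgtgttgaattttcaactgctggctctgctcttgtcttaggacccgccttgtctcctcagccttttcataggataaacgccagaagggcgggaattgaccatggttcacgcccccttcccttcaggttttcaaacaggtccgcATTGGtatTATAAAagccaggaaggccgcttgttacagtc

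The H1 box lies 117 bases before the start in Hist1h1b and 112 in Hist1h1c. Over the 31 genes, CCAAT was found in 27, or 87.1%, against 33.9% of all 32851 promoters of the same length. TATAAA was found in 54.8% against 12.4%, the octamer in 32.3% against 1.60%, and AAACACA in 29.0% against 6.25%. None of the 4 words contains another. The octamer was found in 6 of 11 H2A and 4 of 7 H2B promoters and in none of those of H1, H3 and H4. The windows of Hist1h2aa (chr13:23934187-23934436, plus strand) and Hist1h2ba (chr13:23934157-23934406, minus strand) overlap. The same octamer there, and the other matches in the shared stretch, were counted for both genes. The H1 box was found in 5 of 6 H1 promoters. The octamer was found in 4 of the 12 genes with a promoter whose brightest probe was called higher in the fit over all probes, and in 4 of the 14 whose brightest probe was not called there. CCAAT was found in 11 and 13 of them. These counts include Hist1h2ai, called higher, and Hist2h2aa2, not called, whose probes the files place on the other strand from the promoter. A match is a run of letters and not a measured binding site.

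Of the 43 measured histone probes, 19 were called higher in the hypomorph and 5 lower, and 19 were not called. Over all probes the shares were 12.7% higher and 12.2% lower, together 24.9%. The median of the histone probes was 0.10, with medians of 0.13, 0.11, 0.15 and 0.09 on arrays 1 to 4, against a median of -0.00 over all probes. By class, most H2A and H4 probes were called higher and no H2B probe was, and H1 had probes called in each direction. Counting the brightest probe of each gene, 15 of 33 genes were higher and 3 lower, against 14.0% and 13.6% of all genes (27.6% in either direction). Without array 2 the count was 11 higher and 3 lower, and without array 3 it was 10 and 4, while the shares of all probes fell to 2.70% and 2.59% and to 3.85% and 4.14%.

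**Figure D1:**
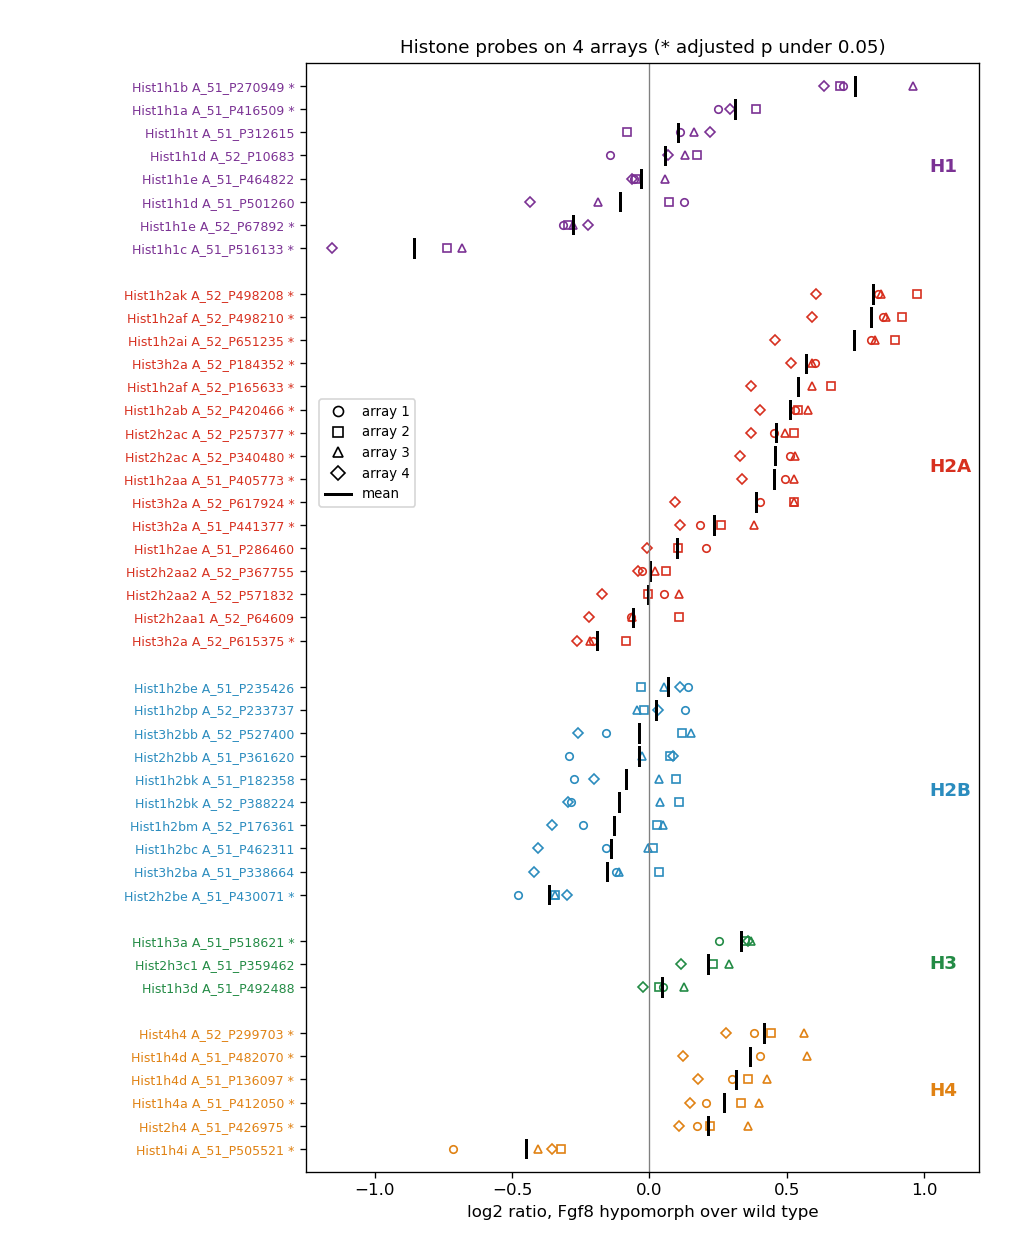
Log2 ratio of hypomorph over wild type (x axis) for each of the 43 measured histone probes (rows, grouped and coloured by class), with 1 open symbol for each array and a bar at the mean; an asterisk marks an adjusted p under 0.05. H2A and H4 rows lie mostly to the right of 0, from a highest mean of 0.81, H2B rows lie near or left of 0, and H1 rows run from 0.75 down to -0.86.

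The 11 called probes that kept their call under every processing alternative and with each array left out were those of Hist1h1b, Hist1h1c, Hist1h2ak, Hist1h2ai, Hist1h2ab, Hist1h3a, Hist4h4 and Hist1h4i and 1 probe each of Hist1h2af, Hist2h2ac and Hist3h2a. Names are those of the array maker, and the Hist1h2ai probe lies on the other strand from the RefSeq gene.

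The linker histones held the lowest mean of all members and 1 of the highest. Hist1h1c, which encodes the somatic linker histone H1.2, was lower on every array that measured it, with -0.74, -0.68 and -1.15 on arrays 2, 3 and 4. Its spot on array 1 was marked by the scanner software and left out. The mean was -0.86 ± 0.26 (SD, n = 3), a 1.81-fold lower level, with an adjusted p of 0.00728 from limma. The probe (mm8, chr13:23747614-23747673, plus strand) was the brightest of the H1 probes, at a brightness of 13.51, the mean log2 intensity of both channels, above 90.2% of measured probes. Under the alternatives its ratio ran from -0.94 to -0.59.

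Hist1h1b, which encodes the somatic linker histone H1.5, had ratios of 0.70, 0.69, 0.96 and 0.64. All 4 arrays were above 0 and well apart from those of Hist1h1c. The mean was 0.75 ± 0.14 (SD, n = 4), 1.68-fold higher, with an adjusted p of 0.00188, the smallest p of the class (mm8, chr13:21787519-21787578, minus strand). Hist1h1a, for H1.1, was also higher, with 0.25, 0.39 and 0.29 on arrays 1, 2 and 4 and an adjusted p of 0.018. Hist1h1t, the testis-specific linker histone, was dim at a brightness of 6.77, with a mean of 0.10 ± 0.13 (SD, n = 4) and an adjusted p of 0.238.

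Hist1h1d and Hist1h1e, for H1.3 and H1.4, each have a second probe far beyond the short coding region. The bright Hist1h1e probe A_51_P464822 gave -0.06, -0.05, 0.05 and -0.06, a mean of -0.03 that was not called (adjusted p 0.641). A dimmer probe 2320 bp downstream, A_52_P67892, gave -0.32, -0.29, -0.28 and -0.22, a mean of -0.28 ± 0.04 (SD, n = 4) that was called lower (adjusted p 0.00803). The RefSeq gene is 782 bp long, so this second probe lies outside it. The gap between both probes was 0.25 ± 0.07 (SD) and had the same sign on 4 of 4 arrays. An exact sign-flip permutation test, two-sided, gave p = 0.125, the smallest that 4 arrays allow, and 0.406 after adjustment over the 13 probe pairs compared among all members. For Hist1h1d, the probe A_52_P10683 gave -0.14, 0.17, 0.13 and 0.07, and A_51_P501260, 1751 bp downstream, gave 0.13, 0.07, -0.19 and -0.43. Neither was called, and their order was not the same on every array.

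In H2A, 11 of 16 probes were higher and 1 lower, against 12.7% and 12.2% of all probes. Among the 11 are the Hist3h2a probes A_52_P617924, placed 17380 bp downstream of another, and A_51_P441377, placed on the opposite strand. H2A had more called members than any other class, and the most probes. Its median ratio was 0.45, with 0.45, 0.53, 0.53 and 0.33 on the 4 arrays. By the brightest probe of each gene, 7 of 10 H2A genes were higher and 0 lower, against 14.0% and 13.6% of all genes. Without array 3, 6 of the 16 probes were called higher, and the median ran from 0.31 with the processed intensities to 0.80 with median centring.

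Hist1h2ak was highest, with 0.83, 0.97, 0.84 and 0.60, all far above 0. Its mean was 0.81 ± 0.15 (SD, n = 4), 1.76-fold higher, with an adjusted p of 0.00175 (mm8, chr13:21761233-21761292, minus strand). Hist1h2af, by its probe A_52_P498210, gave 0.85, 0.92, 0.86 and 0.59, with a mean of 0.81 ± 0.15 (SD, n = 4) and an adjusted p of 0.00166, the smallest p of the class and of all members. Its second probe, A_52_P165633, 308 bp downstream, is the brightest of all members at 16.19 and gave 0.66, 0.59 and 0.37 on arrays 2, 3 and 4. Its mean of 0.54 ± 0.15 (SD, n = 3) was also called higher (adjusted p 0.00929). On the arrays that measured both, the first probe was higher by 0.25 ± 0.02 (SD, n = 3), and an exact sign-flip permutation test gave p = 0.25, the smallest that 3 arrays allow.

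Hist1h2ai, with a mean of 0.75, and Hist1h2ab, with 0.51, were higher on 4 of 4 arrays and called. The files place the Hist1h2ai probe on the minus strand of chromosome 13 in mm8, at 21794624. The RefSeq promoter lies on the plus strand in GRCm38.p6, at 21716162. Whether this probe reads that gene was not tested. Both probes of Hist2h2ac were bright and gave like values. A_52_P257377 gave 0.45, 0.53, 0.49 and 0.37, a mean of 0.46 ± 0.07 (SD, n = 4) with an adjusted p of 0.00293. A_52_P340480 gave 0.51, 0.53 and 0.33 on arrays 1, 3 and 4, also a mean of 0.46 (adjusted p 0.00946). The files place these probes on opposite strands of chromosome 3 in mm8, at 96305950 and 96331233, and the second of them lies beside the Hist2h2aa1 probe at 96330984. That neighbour was not called: Hist2h2aa1 gave -0.07, 0.11, -0.07 and -0.22, with a mean of -0.06 and an adjusted p of 0.48.

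Hist2h2aa2 had ratios near 0 by each of its probes. A_52_P367755 gave -0.03, 0.06, 0.02 and -0.04, and A_52_P571832 gave 0.05, -0.01, 0.11 and -0.17, for means of 0.00 and -0.00 with adjusted p-values of 0.969 and 0.963. Their standard errors were 0.0422 and 0.0572. The files place both probes on the plus strand of chromosome 3 in mm8, whereas the RefSeq promoter lies on the minus strand in GRCm38.p6. Whether the probes read this gene was not tested. Hist1h2ae, with 0.21, 0.10 and -0.01 on arrays 1, 2 and 4, was not called either. The probe named for Hist1h2aa, whose protein is the testis-enriched variant TH2A, was among the brightest of the array, above 99.5% of them. It was higher with 0.49, 0.53 and 0.34 on arrays 1, 3 and 4 (adjusted p 0.00909). It may also bind transcripts of other H2A genes, which was not tested.

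Hist3h2a, a single H2A gene on chromosome 11, was represented by 4 probes that did not give the same answer. A_52_P184352 gave 0.60, 0.59 and 0.51 on arrays 1, 3 and 4, a mean of 0.57 ± 0.05 (SD, n = 3). A_52_P617924, 17380 bp downstream, was dim and gave 0.40, 0.53, 0.53 and 0.09, a mean of 0.39. A_51_P441377, placed on the opposite strand, gave 0.18, 0.26, 0.38 and 0.11, a mean of 0.23. All 3 were called higher.

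The remaining Hist3h2a probe, A_52_P615375, was called lower, with -0.20, -0.08, -0.22 and -0.26 and a mean of -0.19 ± 0.08 (SD, n = 4, adjusted p 0.0321). It lies 567 bp downstream of the first probe on the same strand, and the RefSeq gene is 508 bp long. It was nearly as bright as the first, at 13.65 against 14.0. The gap between these probes was 0.81, 0.81 and 0.78 on arrays 1, 3 and 4, a mean of 0.80 ± 0.02 (SD), with a two-sided exact sign-flip p of 0.25, the smallest possible with 3 arrays. The call at this downstream probe was kept in 7 of 14 alternatives. It was lost with the processed intensities, the series table, a loess span of 0.1 and without array 2, 3 or 4, and under median centring the ratio was positive, at 0.15 (adjusted p 0.115).

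**Figure D2:**
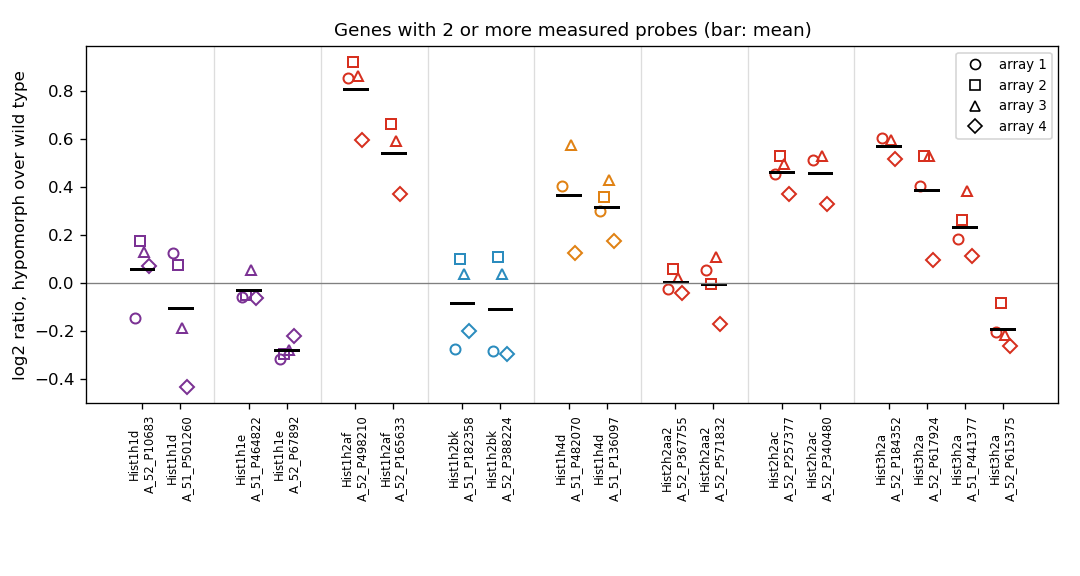
Log2 ratio of hypomorph over wild type (y axis) for the 8 genes with 2 or more measured probes, 1 column for each probe, with 1 symbol for each array and a bar at the mean. The probes of Hist1h2bk, Hist1h4d, Hist2h2aa2 and Hist2h2ac lie at like heights, whereas those of Hist3h2a run from 0.57 to -0.19 and those of Hist1h1e from -0.03 to -0.28.

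H2B, the partner of H2A in the nucleosome, had 0 probes higher and 1 lower of 10. For so few probes this is near the 12.7% and 12.2% of all probes. The median of H2B was -0.10, with -0.20, 0.03, 0.02 and -0.28 on the 4 arrays. On each array the H2B median lay below the H2A median. Under median centring, where the median of all probes was 0.10, that of H2B was 0.04, still below it. Among the probes that changed sign there were Hist1h2bc, Hist1h2bm, Hist3h2bb and both probes of Hist1h2bk, from below 0 to above 0, and Hist3h2bb was then called higher (0.20, adjusted p 0.0491).

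Hist2h2be was the lowest and the one with the smallest p, with -0.48, -0.34, -0.35 and -0.30, below 0 on 4 of 4 arrays. Its mean was -0.37 ± 0.08 (SD, n = 4), 1.29-fold lower, with an adjusted p of 0.00578 (mm8, chr3:96308863-96308922, plus strand). Under median centring its ratio was -0.16 and its call was lost (adjusted p 0.067). Hist1h2be had the highest mean, 0.07, from -0.03 to 0.14, at a brightness of only 6.69. It was called higher with the processed intensities and the deposited series table, at 0.32 (adjusted p 0.03). Hist1h2bc was the brightest at 12.47 and gave -0.16, 0.01, -0.01 and -0.41, with a mean of -0.14 and an adjusted p of 0.22.

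The probes of Hist1h2bk, 66 bp apart, moved together: A_51_P182358 gave -0.27, 0.10, 0.04 and -0.20, and A_52_P388224 gave -0.29, 0.11, 0.04 and -0.30. Their means, -0.09 and -0.11, were not called. The same split between arrays was seen in Hist1h2bm, with -0.24, 0.03, 0.05 and -0.35, and in Hist3h2bb, with -0.16, 0.12, 0.15 and -0.26. In 6 of 10 H2B probes arrays 2 and 3 both lay above arrays 1 and 4. This was also so in 9 of 11 H2A and 4 of 5 H4 probes with 4 values, in 21 of 34 histone probes in all, or 61.8%, and in 14.9% of all probes with 4 values. The pattern was picked after the values were seen, has no test, and widened the spread against which each of these means was tested.

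In RefSeq, 4 of the measured genes span over 1000 bp, namely Hist1h2bc, Hist1h2be, Hist1h2bp and Hist2h2be, all of them H2B. Their median was -0.06, with 0 probes higher and 1 lower, against 0.21 for the other 39 probes, of which 19 were higher and 4 lower. Over all probes, 12.7% were higher and 12.2% lower. The 10 H2B probes together had a median of -0.10, with 0 higher and 1 lower, so this split is also by class. A part of gene length was not tested, and the split was made with the values known.

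Only 3 H3 probes were measured. Hist1h3a gave 0.25, 0.35, 0.37 and 0.36, with a mean of 0.33 ± 0.05 (SD, n = 4) and an adjusted p of 0.00592, and was called higher (mm8, chr13:23769352-23769411, minus strand). Hist2h3c1, the brightest at 16.10, gave 0.23, 0.29 and 0.11 on arrays 2, 3 and 4. Its mean of 0.21 ± 0.09 (SD, n = 3) missed the threshold over all probes (adjusted p 0.0532). It passed in 6 of 15 alternatives, among them the brightest probe of each gene (adjusted p 0.0498), where it is 1 of the 15 genes counted as higher. Hist1h3d, also bright at 15.25, was lowest, with 0.05, 0.04, 0.13 and -0.02 and an adjusted p of 0.457. The median of the class was 0.21, but 0.02 with the processed intensities and 0.02 with a loess span of 0.1.

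Of the 6 H4 probes, 5 were higher and 1 lower, against 12.7% and 12.2% of all probes. The median of the 6 was 0.29. Without array 2 or without array 3, only Hist4h4 was called higher and Hist1h4i lower. Hist4h4, which lies alone on chromosome 6, had the highest mean and the smallest p, with 0.38, 0.44, 0.56 and 0.28. The mean was 0.42 ± 0.12 (SD, n = 4), 1.33-fold higher, with an adjusted p of 0.00655 (mm8, chr6:136768392-136768451, minus strand). Both probes of Hist1h4d were called higher. A_51_P482070 gave 0.40, 0.57 and 0.12 on arrays 1, 3 and 4 (mean 0.37, adjusted p 0.0454). A_51_P136097, the brightest of the class at 12.89, gave 0.30, 0.36, 0.43 and 0.18 (mean 0.32, adjusted p 0.0117). Hist1h4a and Hist2h4 were higher too, with means of 0.27 and 0.21.

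Hist1h4i was the exception, with -0.71, -0.32, -0.41 and -0.36. It was below 0 on all 4 arrays while the other H4 probes were above 0 on every array that measured them. The mean was -0.45 ± 0.18 (SD, n = 4), 1.37-fold lower, with an adjusted p of 0.0104 (mm8, chr13:22048045-22048051, minus strand, a span shorter than a probe in the files).

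Of the 4 probes that were not measured, those of Hist1h2ac and a second one of Hist4h4 were well above background on 0 arrays. The probes of Hist1h2ba, for the testis-enriched TH2B, and of Hist1h4f had values on too few arrays after spots marked by the scanner software were left out. With those spots kept, Hist1h2ba had a mean of -0.14 (adjusted p 0.149) and Hist1h4f a mean of 0.30 (adjusted p 0.0146), each close to the median of its own class.

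**Figure D3:**
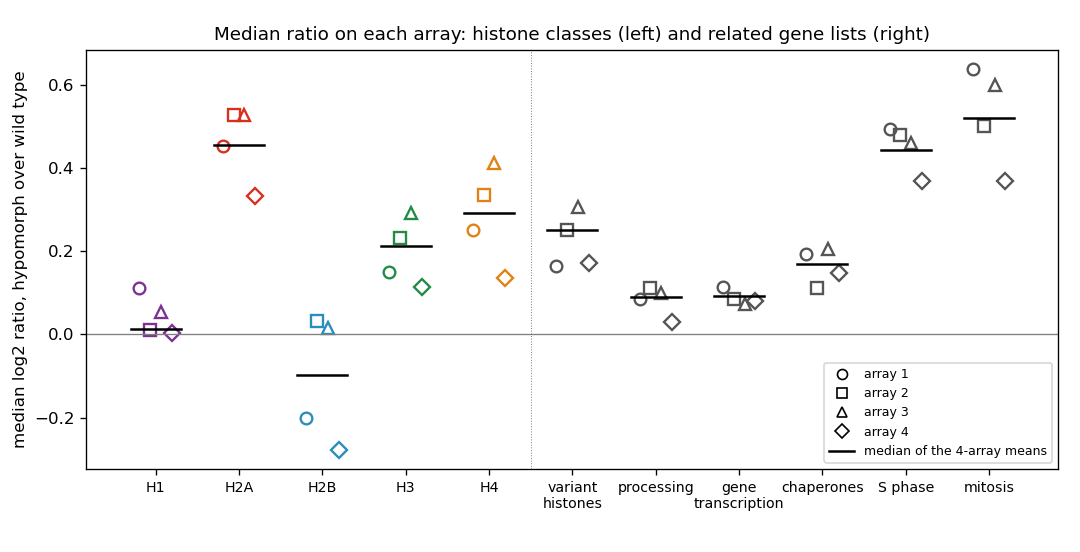
Median log2 ratio of hypomorph over wild type (y axis) on each of the 4 arrays (symbols) for the 5 histone classes, over probes, and for 6 related gene lists, over the brightest probe of each gene; bars are the medians of the 4-array means. H2A lies at 0.45, H2B at -0.10, H4 at 0.29, the S phase list at 0.44 and the mitosis list at 0.52.

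Over all probes, 12.7% were higher and 12.2% lower. By location, the large Hist1 cluster on chromosome 13 had 12 probes higher and 3 lower of 27, with a median of 0.10. The Hist2 cluster on chromosome 3 had 3 higher and 1 lower of 9, with a median of 0.00, and Hist3 on chromosome 11 had 3 and 1 of 6, with a median of 0.10. Rises and falls thus lay within the same cluster: Hist1h1b and Hist1h1c, and Hist2h2ac and Hist2h2be, each pair shares a chromosome and cluster.

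The brightness of the histone probes ran from 6.69 to 16.19, with a median of 11.23, against 9.81 over all measured probes. Across the 43 probes the ratio and the brightness had a Pearson r of 0.20 and a Spearman rho of 0.20, given as a description since probes share arrays and paralogs share sequence. Of the 6 histone probes brighter than 14, 4 were called higher and 0 lower, and their median was 0.45, whereas the 1919 probes of that brightness in all had a median of -0.03 and 16.3% higher. Of the 8 histone probes between 11 and 12, 3 were higher and 2 lower, against 15.1% higher over all probes in that range. The ratios of those 6 depended on how the dyes were balanced at high signal. Hist1h2aa, at 0.45, became 0.27 with the processed intensities (adjusted p 0.0597), 0.30 with a loess span of 0.1 and 1.14 with median centring. Hist2h3c1, at 0.21, became -0.01, 0.02 and 0.83 in the same order. The highest member, Hist1h2ak, and the lowest, Hist1h1c, lay below a brightness of 14. Ratios of the histone probes correlated between arrays with r from 0.86 to 0.96.

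**Figure D4:**
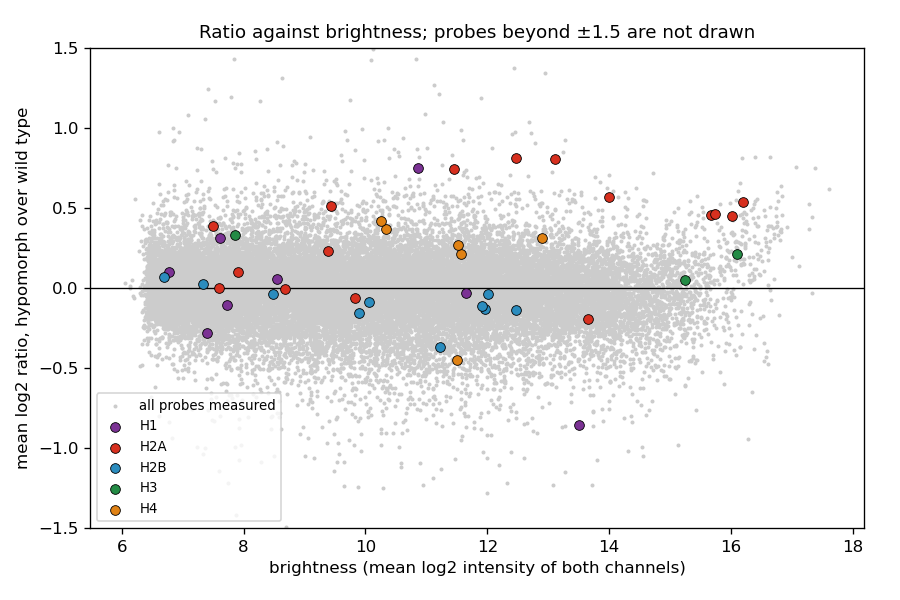
Mean log2 ratio of hypomorph over wild type (y axis) against brightness, the mean log2 intensity of both channels (x axis), for all 30008 measured probes (grey) and the 43 histone probes (coloured by class). Hist1h1c stands at -0.86 and a brightness of 13.51, and the H2A probes brighter than 14 lie between 0.45 and 0.54.

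Variant and replacement histones are made also outside S phase, mostly from genes with introns and poly(A) tails. Of 11 measured variant histone genes 7 were higher, or 63.6%, and 0 lower, against 14.0% and 13.6% of all genes. The median of the 11 was 0.25. The replacement histone H3.3 was higher by both its genes, H3f3a at 0.36 and H3f3b at 0.25 (adjusted p 0.0124 and 0.0217, n = 3 each). Cenpa, the H3 variant of centromeres, had 0.25, 0.44, 0.41 and 0.20 (adjusted p 0.0107), and the linker histone H1fx 0.61, 0.34 and 0.65 on arrays 1 to 3 (adjusted p 0.00964). H1f0, the linker histone of resting cells, had a mean of -0.04 ± 0.19 (SD, n = 4) and was not called. H2afx was measured only with marked spots kept (0.27, adjusted p 0.025). No probe looked up under the name H2afz passed the background filter, and probes of that gene under another name were not looked up.

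Histone mRNA is cut at its 3′ end by a dedicated machinery. Of 30 genes for processing and turnover 5 were higher, or 16.7%, close to the 14.0% of all genes, and 0 were lower. The median was 0.09. The 5 were Slbp, which binds the stem loop, at 0.34, 0.19, 0.22 and 0.26 (adjusted p 0.0121), the cap-binding Ncbp1 at 0.26, the Sm protein Snrpf at 0.25, the endonuclease Cpsf3 at 0.26, and Cstf2 at 0.29. The U7-specific proteins Lsm10, at -0.12 ± 0.07, and Lsm11, at 0.06 ± 0.16, were not called. Zfp473, a stem-loop factor, varied widely, with -0.06, 0.39, 0.80 and 0.23 (adjusted p 0.0959).

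Of 17 genes for histone gene transcription, 4 were higher and 2 lower, or 23.5% and 11.8%, against 14.0% and 13.6% of all genes. The median was 0.09. Ccne1, the cyclin that with Cdk2 activates Npat at entry into S phase, was at 0.52 ± 0.03 (SD, n = 4, adjusted p 0.00137), and E2f1 was at 0.50 (adjusted p 0.00253). Npat itself had 0.08, 0.08, 0.07 and 0.05, a mean of 0.07 that was not called (adjusted p 0.208). Casp8ap2 at 0.05 and Hinfp at 0.10 were not called either. Pou2f1, which binds the octamer, was lower, with -0.28, -0.36, -0.31 and -0.24 (adjusted p 0.00628). Nfya, a subunit of the factor that binds CCAAT, was higher by 0.16 (adjusted p 0.0378).

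Of 26 histone chaperones and chromatin assembly factors 12 were higher, or 46.2%, and 0 lower, against 14.0% and 13.6% of all genes. The median of the 26 was 0.17. Chaf1b and Chaf1a, which deposit new H3 and H4 behind the replication fork, had means of 0.62 and 0.51 (adjusted p 0.00217 and 0.00251). Asf1b had 0.49 (adjusted p 0.00274), and Nasp, a chaperone of H3 and H4, had 0.32 (adjusted p 0.00584). All 4 were above 0 on 4 of 4 arrays.

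Of 40 genes of DNA replication and S phase 38 were higher, or 95%, and 0 lower, against 14.0% and 13.6% of all genes. The median of the 40 was 0.44, with array medians of 0.49, 0.48, 0.46 and 0.37. Of 19 mitosis genes 19 were higher, with a median of 0.52. Mcm5, a subunit of the replicative helicase, stood at 0.71 and Aurkb, a mitotic kinase, at 0.64 (adjusted p 0.00114 and 0.0011). Rfc2 at -0.09 and Orc6 at -0.07 were the S phase genes not called. By the brightest probe of each gene, the medians of H2A, at 0.49, and of the S phase list were alike in size. That of H2B was -0.11. Over probes, the H2B median was above 0 on arrays 2 and 3, at 0.03 and 0.02. Under median centring it was 0.04, where the median of all probes was 0.10. The H2A median over probes ran from 0.31 to 0.80 across the alternatives. The part of the S phase and mitosis lists in the histone values was not tested.

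Markers of the cell types that a lung lobe could hold were set beside these values. Of all genes, 14.0% were higher and 13.6% lower, and each of these lists is short. Lung epithelium markers, which identify the tissue, were measured at a brightness of 10.6 to 15.4, with 2 of 7 higher (Cdh1 and Nkx2-1) and 1 lower (Aqp5, -0.66). Sftpc, Sftpd and Scgb1a1 lacked enough unmarked spots, and with marked spots kept they were at 0.46, -0.58 and -0.16 (adjusted p 0.0078, 0.00634 and 0.0425). Mesenchyme and endothelium markers had 1 higher (11.1%) and 3 lower (33.3%) of 9. Erythroid markers had 0 higher and 2 lower (16.7%) of 12, with a median of -0.08. Leukocyte markers had 0 higher and 2 lower (20%) of 10, with a median of -0.01. Lyz2 of that list was measured only with marked spots kept, at 0.29 (adjusted p 0.0424). Heart muscle markers, none of 5 called, had a median of -0.19 but array medians of 0.09, 0.07, -0.38 and -0.56. Male germ cell markers, relevant to the testis histones Hist1h2aa, Hist1h2ba and Hist1h1t, had 0 of 4 called, with Ddx4 at a brightness of 7.56 and Dazl and Sycp3 not well above background. The part of these cell types in the histone values was not tested.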

How the data were processed

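The submitters' processing notes name Agilent Feature Extraction 9.5.1. Per the file headers, the deposited intensities comprise raw means and local backgrounds for each dye, and processed intensities that had background and dye differences removed by the scanner software. The deposited log10 ratio column (red over green) was not used in the fit. The deposited series table holds log2 values that equal log2 of processed red over green, hypomorph over wild type, on every array (r = 1), so scale and direction are settled. Its column medians were -0.02, -0.00, -0.05 and -0.02. All 4 files carry 1 scan time.

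Mean intensities were corrected with normexp (offset 50) and normalized by loess within arrays (span 0.3, control spots at weight 0) in limma 3.58.1 under R 4.3.3. Spots marked as outliers were left out, spots of a probe averaged, and a probe was kept with 3 or more values and a signal well above background, in either dye, on 3 or more arrays. Mean log2 ratios were compared with 0 by lmFit and eBayes, with p-values adjusted by Benjamini-Hochberg over 30008 probes. Related lists used the brightest probe of each gene, adjusted over 20620 genes. Of 204 listed genes, 199 were on the array. The scripts were tested on simulated data. The number of arrays, 4, limits the precision.

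Members and lists were chosen with earlier results of these data known. Values on all arrays are given for the members with the highest and lowest mean, smallest p and highest brightness of each class and for genes with several probes, and in the lists for up to 4 genes with the smallest p and the defining factors, of which a part is named. Others named were picked after their values were seen. Positions of probes are in mm8, as in the files, and promoters in GRCm38.p6. Genes were named by the files, with 24375 of 41174 probes matched to RefSeq by accession. No annotation of mm8 was used here. The alternatives were other background corrections, an offset of 16, a span of 0.1, median centring, the series table and other filters. Further ones were marked spots kept, the brightest probe of each gene, an intensity trend, and each array left out. They are not all separate checks. The series table gave the same results as the processed intensities. The filters and the brightest probe of each gene left the ratio of a probe unchanged.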

Additional observations from a re-analysis of the deposited data

Results flagged for a closer look

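Of the 34 histone probes with values on 4 arrays, 2 had an array whose gap to the nearest other value took up a larger share of the range than Dixon's critical value for 4 values. Chance alone marks about 1 group in 20. For the bright Hist1h1e probe A_51_P464822, array 3 stood at 0.05 (0.0547) while the other arrays lay between -0.06 and -0.05, a gap of 0.891 of the range. For Hist1h3a, array 1 stood at 0.25 (0.2515) while the others lay between 0.35 and 0.37, a gap of 0.834 of the range. Both ranges are narrow beside those of other members.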

How the results depend on the processing

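Of the called histone probes, 11 kept their call and direction under every alternative run. The median ratio of the histone probes, 0.10, became 0.16 with the processed intensities and with the deposited series table, 0.20 with median centring, 0.062 with a loess span of 0.1 and 0.068 with no filter on dim probes. Median centring also moved the median of all probes to 0.10, and it changed the calls over all probes from 3802 higher and 3663 lower to 10998 and 3832. Under it 3 histone probes were called lower, and of 43 probes 9 turned from negative to positive and 4 from positive to negative. Of these, 3 were called before or after the turn: Hist1h1e A_51_P464822 (to 0.19), Hist3h2a A_52_P615375 (to 0.15) and Hist3h2bb (to 0.20). By the brightest probe of each gene, 3 members were lower. Leaving out each array in turn gave 10 to 19 probes higher, 3 to 5 lower and medians from 0.070 (without array 4) to 0.10, the fewest calls without array 3 (10 higher) and array 2 (11 higher, 3 lower); the cause was not tested. Under no other alternative did the count of higher probes leave 15 to 23. Each array holds 1 pool of each genotype and gives 1 ratio, so the test of ratios against 0 already paired the pools of an array. No member spot was saturated. The dim probes of Hist1h2be and Hist1h1t were well above background on 4 of 4 arrays, and the offset can draw the ratios of such probes toward 0.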
